A study of Homo sapiens with 2 samples.

Results

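The lung epithelial identity genes are a fixed set of 10 genes, 5 that encode transcription factors (NKX2-1, FOXA1, FOXA2, GATA6 and SOX9) and 5 that encode products of alveolar and airway cells (SFTPB, SFTPC, SFTPD, SCGB1A1 and ABCA3), out of 19974 protein-coding genes of RefSeq on chromosomes that held peaks. Around them, 25 of the 54389 ETV4 peaks lay within 20 kb of a gene span. The peaks came from 1 ChIP-seq library, made with an anti-Flag antibody from A549-shETV4 cells that were transfected with Flag-ETV4. A549 is an established human lung adenocarcinoma line, shETV4 stands for a short hairpin RNA against ETV4, and the Flag tag marks only the transfected protein, so binding of any remaining endogenous ETV4 was not read. The other sample, an input library of A549 genomic DNA without antibody, entered only through the peak caller's fold, p-value and q-value. The antibody is a Sigma product in the labels and a CST product in the study's methods. With 1 library and no replicate, no SD and no test between groups of genes was possible, and the values below describe this library. Expression was not measured.

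ETV4 belongs to the PEA3 group of ETS transcription factors, which bind DNA through a domain that recognizes the short core GGAA. In the developing lung, PEA3 factors act downstream of FGF signalling at the branching tips. NKX2-1 is the homeodomain factor that specifies lung and thyroid, FOXA1 and FOXA2 are forkhead factors that open chromatin in foregut tissues, GATA6 is a zinc finger factor of endoderm, and SOX9 marks distal tip progenitors of the embryonic lung. Alveolar type II cells secrete surfactant, of which SFTPB and SFTPC encode hydrophobic proteins and SFTPD a collectin of innate defence. ABCA3 encodes the transporter that loads lipid into lamellar bodies and stays in their membrane, so it is a product of these cells that is not secreted. SCGB1A1 encodes the secretoglobin of airway club cells.

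The sequences just before the gene starts were read from RefSeq promoters on GRCh38.p14, in which 6 of the 10 genes were found (NKX2-1, FOXA1, GATA6, SFTPB, SFTPD and ABCA3). FOXA2, SOX9, SFTPC and SCGB1A1 were not in that table. The 5 stretches below are the 250 bases before a start, shown because 4 of them lay wholly inside an ETV4 peak while that of SFTPB touched none, although it holds the most copies of the core. Each is written 5′ to 3′ on the strand of the gene, and the capitals mark GGAA, or TTCC where the core is on the other strand.
NKX2-1, chr14:36520233-36520482, minus strand: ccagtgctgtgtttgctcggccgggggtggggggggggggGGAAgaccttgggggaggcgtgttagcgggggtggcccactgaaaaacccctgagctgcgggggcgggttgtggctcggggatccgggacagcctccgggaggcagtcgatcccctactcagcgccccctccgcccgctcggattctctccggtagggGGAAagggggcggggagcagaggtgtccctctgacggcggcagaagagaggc
GATA6, chr18:22169339-22169588, plus strand: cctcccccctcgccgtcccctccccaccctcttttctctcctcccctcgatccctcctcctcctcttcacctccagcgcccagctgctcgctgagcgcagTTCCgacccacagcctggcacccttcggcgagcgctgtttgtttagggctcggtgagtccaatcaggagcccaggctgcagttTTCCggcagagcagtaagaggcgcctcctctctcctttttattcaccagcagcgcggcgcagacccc
FOXA1, chr14:37595250-37595499, minus strand: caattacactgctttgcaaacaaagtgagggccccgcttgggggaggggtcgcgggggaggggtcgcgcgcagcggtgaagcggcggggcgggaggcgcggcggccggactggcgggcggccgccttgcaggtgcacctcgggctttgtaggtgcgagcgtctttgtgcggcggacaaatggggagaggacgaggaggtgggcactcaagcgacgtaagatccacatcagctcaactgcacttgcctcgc
ABCA3, chr16:2340729-2340978, minus strand: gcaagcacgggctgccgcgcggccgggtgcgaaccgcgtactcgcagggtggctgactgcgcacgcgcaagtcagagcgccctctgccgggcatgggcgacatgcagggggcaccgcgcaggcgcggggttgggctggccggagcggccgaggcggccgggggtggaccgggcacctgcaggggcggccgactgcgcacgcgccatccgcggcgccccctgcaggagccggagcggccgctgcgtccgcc
SFTPB, chr2:85668200-85668449, minus strand, before the inner of its 2 starts: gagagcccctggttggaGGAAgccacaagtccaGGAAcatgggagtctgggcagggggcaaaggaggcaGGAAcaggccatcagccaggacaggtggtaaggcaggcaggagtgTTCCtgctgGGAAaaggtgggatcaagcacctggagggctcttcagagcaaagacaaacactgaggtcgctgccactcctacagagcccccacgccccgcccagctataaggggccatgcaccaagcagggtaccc

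The core was searched on both strands in these 250 bases, together with the longer form AGGAAG, which contains it. GGAA was present in 92.7% of all 35116 upstream stretches of the same length, and AGGAAG in 28.7%. The stretch of NKX2-1 held 2 copies of GGAA, 210 and 52 bases before the start, and that of GATA6 held 2 on the other strand, 150 and 67 bases before the start. Those of FOXA1 and ABCA3 held none, although both were covered by peaks, with folds of 35.7 and 33.4 and summits inside the genes. In the SFTPB stretch there were 5 copies, and it was the only member stretch with AGGAAG, whose GGAA begins 233 bases before the start. The stretch before the outer start of SFTPB held no copy and that of SFTPD held 1. Neither touched a peak. The stretch before the inner start of NKX2-1 held 1 copy, and 70 of its 250 bases lay in a peak. A summit fell inside an upstream stretch once, at NKX2-1. Matches describe these letters only, and the sequence under the other summits was not analysed here.

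Each peak has a fold enrichment, the height of the immunoprecipitate at the summit over the local control level, and a q-value of the peak caller. The median fold over all peaks was 9.63. The number of fragments at the summit was computed from the fold and the p-value of each peak, and its exact Poisson 95% interval, given in brackets after the word fragments, covers counting error only. At the 25 peaks near the 10 genes, the lowest pileup was 9 fragments, the median 41 and the highest 119, and the median over all peaks was 26. The control level ran from 1.28, the lowest value of the list, to 3.04. Their fold ranged from 3.51 to 47.5 with a median of 13.1. A fold of 10 or more was reached by 18 of the 25 peaks (72%), against 48.5% of all peaks. At peaks within 1 kb of a protein-coding 5′ end, which make up 21.0% of the list, the share was 68.4%. At the other peaks of the list it was 43.2%, and 14 of the 25 peaks lay at no coding 5′ end.

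**Figure D1:**
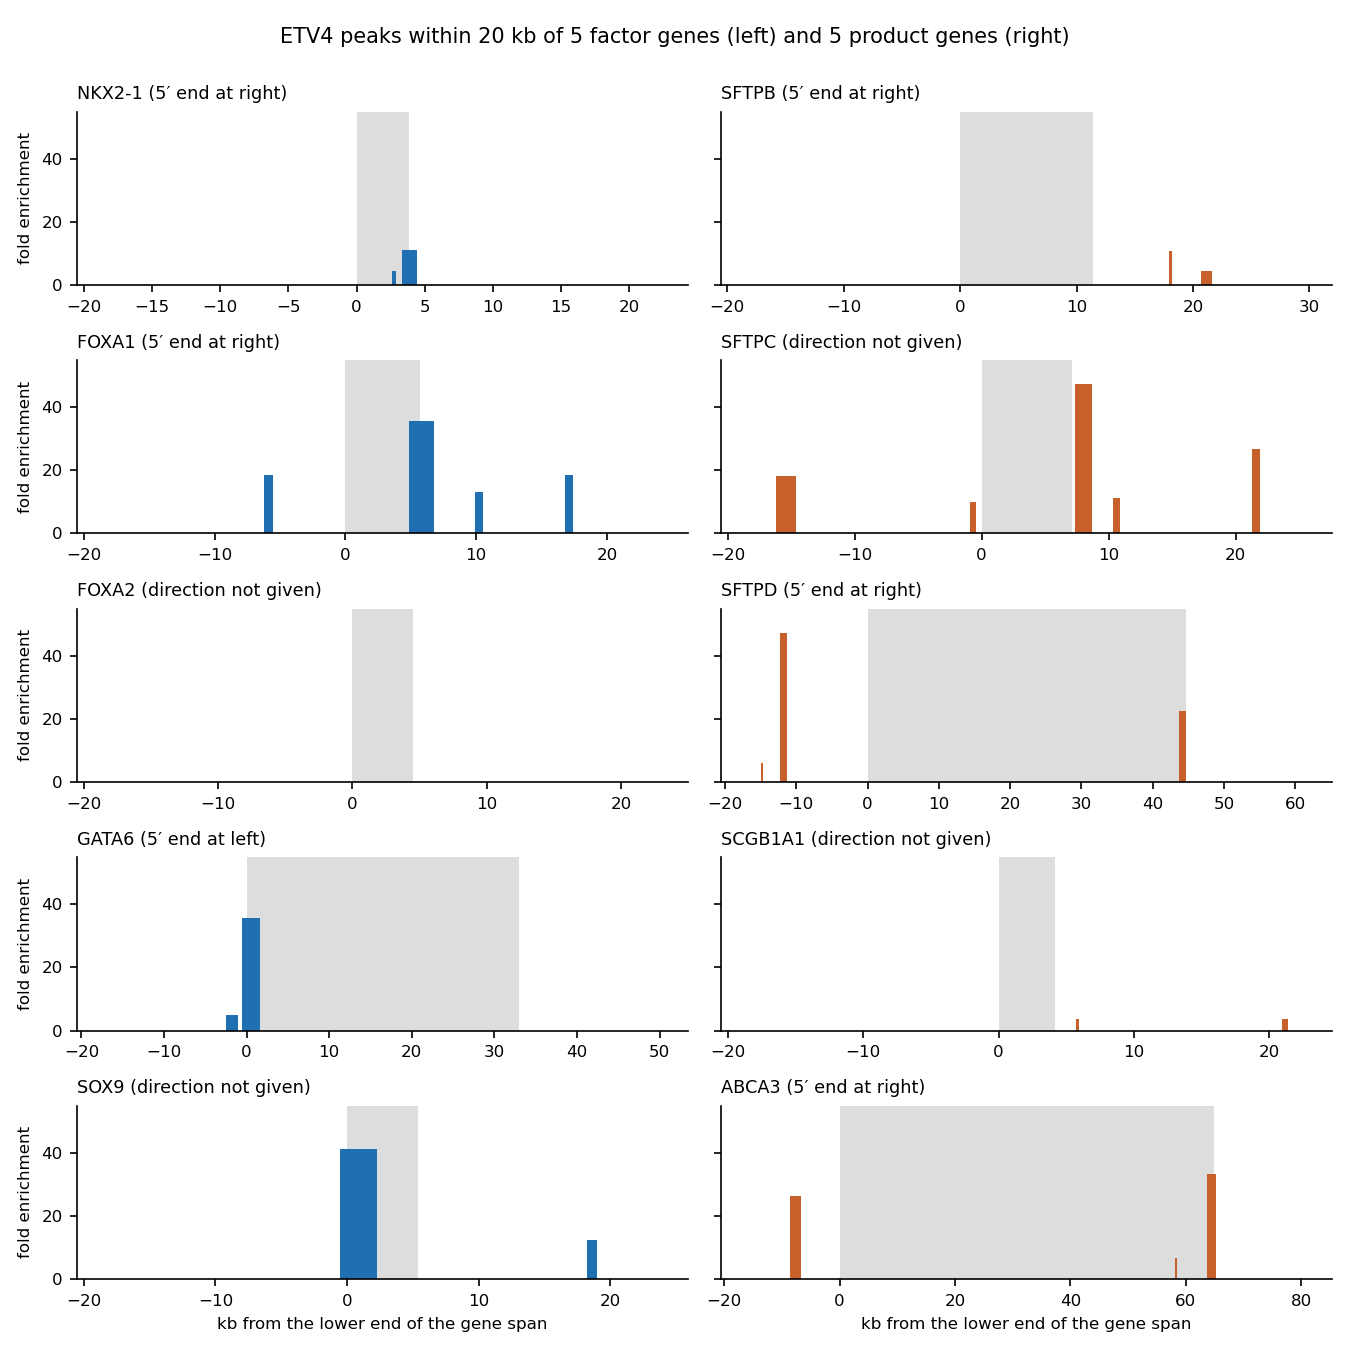
Fold enrichment (vertical axis) of every ETV4 peak within 20 kb of the 10 genes against its distance in kb from the lower coordinate of the gene span (horizontal axis). Grey boxes are the gene spans, coloured bars the peaks drawn to their width. The strong peaks of FOXA1, GATA6 and SOX9 sit on a gene end, while those of SFTPC and SFTPD with folds of 47.5 and 47.3 lie outside the spans.

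Of the 5 factor genes, NKX2-1, FOXA1, GATA6 and SOX9 each had at least 1 peak in the 20 kb window and at least 1 no more than 1 kb away from the 5′ end, there with a fold of 10 or more, and FOXA2 had neither. For comparison, the window held a peak in 86.3% of the protein-coding genes, the 5′ end had one in 60.2%, and one of fold 10 or more in 43.6%. Where RefSeq promoters gave no direction, both ends of a gene were counted, and among the 15812 genes with a direction the share at the outer 5′ end was 61.4%. The 4 of 5 factors are thus to be read against shares that already cover most genes for a peak of any fold.

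SOX9 had the strongest peak among the factors. Its span is on chromosome 17, from 72121020 to 72126416. The peak from 72120459 to 72123267 contained the lower end of the gene, with a fold of 41.3, a −log10 q of 161 and 118 fragments (97.7 to 141) over a control level of 1.88. The summit at 72122006 lay 986 bp inside the gene. The interval of 2809 bp was at percentile 99.4 of all peaks by width. It also contained the outer end, at 72120793, of SOX9-AS1, a lncRNA on the minus strand. The second peak, from 72139278 to 72139981, was 13293 bp from the nearest end of SOX9 in a stretch without any annotated gene, with a fold of 12.5 and 41 fragments (29.4 to 55.6). The intervals of the pileups of the 2 peaks did not overlap.

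At GATA6 on chromosome 18, from 22169589 to 22202528 on the plus strand, a peak from 22169040 to 22171271 covered the 5′ end. Its fold was 35.7, its −log10 q 152 and its pileup 119 fragments (98.6 to 142) over a control level of 2.36. The summit at 22169766 lay 177 bp inside the gene, just past the stretch printed above. A second interval upstream, from 22167134 to 22168573, was 1440 bp wide but weak, with a fold of 4.95 and 19 fragments (11.4 to 29.7). Its summit lay 1087 bp before GATA6, within GATA6-AS1, a lncRNA on the opposite strand. Its control level of 3.04 was the highest of the 25 peaks. No other peak lay in the window, so the remainder of the gene of 32940 bp held none.

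FOXA1 had the most peaks of the factors, 4, and all of them reached a fold of 10. The gene is on chromosome 14, from 37589552 to 37595249 on the minus strand. The peak from 37594401 to 37596301 covered the 5′ end, with a fold of 35.7, a −log10 q of 113 and 83 fragments (66.1 to 103). Its summit at 37594671 lay 578 bp inside FOXA1, and the same interval contained the 5′ end of TTC6, a coding gene on the plus strand that starts at 37595629, 958 bp from the summit. The peaks from 37599494 to 37600056 and from 37606374 to 37606934 lay inside TTC6, 4471 and 11423 bp upstream of FOXA1, with folds of 13.1 and 18.6. The peak from 37583301 to 37584010, in a gap between genes beyond the 3′ end of FOXA1, had a fold of 18.4 and 41 fragments (29.4 to 55.6). The pileup at the 5′ end was above the intervals of the other 3 peaks, which had 29 to 49 fragments. Peaks inside TTC6 cannot be assigned to either gene from these data.

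NKX2-1 had the weakest peaks of the 4 factors that had any. It lies on the same chromosome as FOXA1, from 36516397 to 36520232 on the minus strand. A peak of 1099 bp from 36519737 to 36520835 covered the outer 5′ end, with a fold of 11.1, a −log10 q of 21.3 and 25 fragments (16.2 to 36.9) over a control level of 1.35. The summit at 36520302 lay 70 bp before the start, inside the printed stretch and between the 2 copies of the core, and also inside NKX2-1-AS1, a lncRNA on the plus strand. The other interval, from 36518986 to 36519297, was inside the gene, 343 bp from the inner start at 36519556. Its fold of 4.38 rested on 9 fragments (4.12 to 17.1), so the intervals of the 2 pileups touched between 16.2 and 17.1. The inner start is also the outer end of SFTA3, a lncRNA on the same strand whose span overlaps that of NKX2-1. Among the 11430 peaks at protein-coding 5′ ends, the fold of the stronger NKX2-1 peak was at percentile 35.9, against percentile 83.4 for FOXA1, 83.2 for GATA6 and 88.2 for SOX9.

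FOXA2 had no peak within 20 kb. The gene lies on chromosome 20, from 22580998 to 22585490. The nearest peak, from 22526483 to 22527047, was 54 kb from the span and had a fold of 30.2 with 68 fragments (52.8 to 86.2). FOXA2 thus belongs to the 13.7% of protein-coding genes without a peak in the window, while its paralog FOXA1 had 4. A peak that is not listed was below the authors' threshold, which does not show that ETV4 was absent.

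**Figure D2:**
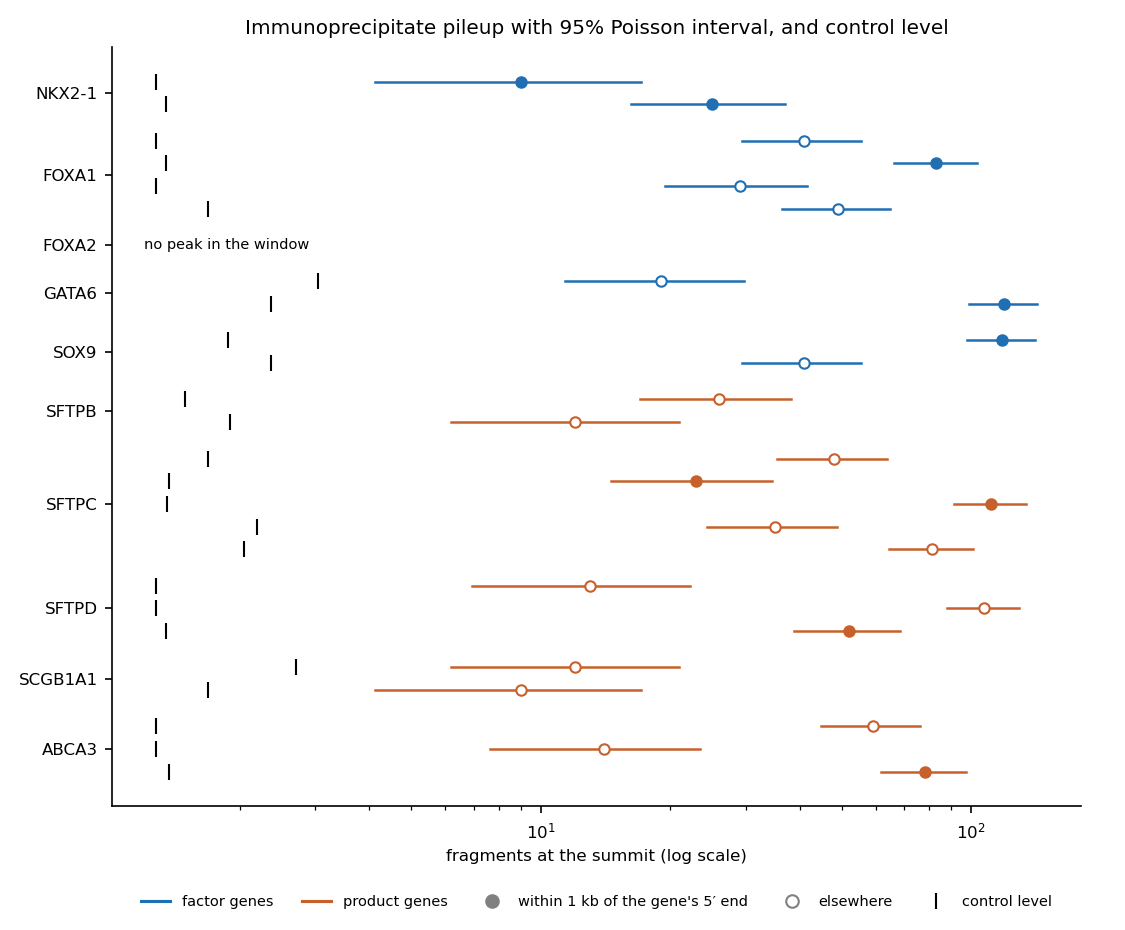
Fragments at the summit of the immunoprecipitate (circles, horizontal log axis) with exact Poisson 95% intervals (lines) and the control level (black ticks) for the 25 peaks, by gene. Filled circles lie within 1 kb of the gene's 5′ end, or of either end where no direction was given, and open circles elsewhere. The control levels stay between 1.28 and 3.04, while the pileups run from 9 to 119.

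All 5 product genes had at least 1 peak within 20 kb, and 4 of them a peak of fold 10 or more, the same number as of the factors and against 72.5% of all protein-coding genes. At the 5′ end, within 1 kb, SFTPC, SFTPD and ABCA3 had a peak, 3 of 5, each with a fold of 10 or more, beside 60.2% of all coding genes with a peak there and 43.6% with one of that fold. These peaks lay on different features. A distance of 2 kb added SCGB1A1, with a fold of 3.51, so that products and factors both had 4 of 5, against 63.0% of coding genes. That peak lay beyond the upper end of SCGB1A1, whose direction was not given, so it need not be at the 5′ end. With a distance of 0.5 kb, or with the summit itself within 1 kb, the counts were again 4 factors and 3 products, against 57.9% and 56.6%. Counting only peaks whose summit was no nearer to another coding gene left SFTPD and ABCA3, against 53.4%. Taking the starts of RefSeq promoters in place of the outer ends left SFTPC and ABCA3, against 62.6%, but SFTPC, SCGB1A1, SOX9 and FOXA2 have no start there and kept their outer ends, so this choice could not change them. With both choices ABCA3 alone was left, against 55.7%, and the count for the factors was 4 in each case. The last 3 alternatives were added once the values were known.

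ABCA3 was the product gene with the plainest peak at its start. It lies on chromosome 16, from 2275881 to 2340728 on the minus strand. The peak from 2339628 to 2341161 covered the 5′ end with a fold of 33.4, a −log10 q of 104 and 78 fragments (61.7 to 97.3) over a control level of 1.37. The summit at 2340131 was 597 bp inside ABCA3, and the interval also held the end of the pseudogene ABCA17P. A narrow peak of 277 bp, from 2334076 to 2334352, lay 6489 bp inside the gene with a fold of 6.57. The third peak, from 2267354 to 2269244 and beyond the 3′ end of ABCA3, had a fold of 26.3 and a summit 95 bp from the 5′ end of RNPS1, which encodes a splicing factor.

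SFTPC had the most peaks of the 10 genes, 5, with folds from 10.1 to 47.5, and none of them touched the gene itself. It lies on chromosome 8, from 22157383 to 22164479. The strongest peak, from 22164743 to 22166090, had a fold of 47.5, a −log10 q of 165 and 111 fragments (91.3 to 134). It began 0.264 kb beyond the upper end of SFTPC, but its summit at 22165317 lay 55 bp from an end of BMP1, the gene of a procollagen protease. The peak at the other end, from 22156448 to 22156915, had a fold of 10.1 and 23 fragments (14.6 to 34.5). Its summit was 688 bp from SFTPC and 111 bp from an end of LGI3, inside that gene. Of the remaining 3 peaks, that from 22141214 to 22142725 lay at an end of REEP4 and the other two lay inside BMP1, with folds of 11.3 and 26.9. All 5 summits were thus nearer to another coding gene than to SFTPC or inside one. The direction of SFTPC was not given by RefSeq promoters, so either end was counted as its 5′ end.

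SFTPD lies on chromosome 10, from 79937740 to 79982383 on the minus strand. The peak from 79981430 to 79982351 was 574 bp inside the outer 5′ end by its summit and had a fold of 22.6, a −log10 q of 60.5 and 52 fragments (38.8 to 68.2). That summit lay inside the pseudogene ZNRF2P3 as well. The start of SFTPD in RefSeq promoters, at 79949105, is 33.3 kb inside that outer end, and no peak lay within 1 kb of it. The nearest summit was 23.4 kb away. It belonged to the strongest peak of the window, from 79925513 to 79926409, with a fold of 47.3, a −log10 q of 160 and 107 fragments (87.7 to 129). This peak lay 12006 bp beyond the 3′ end of SFTPD, inside the pseudogene BMS1P21. A weak peak with a fold of 6.13 lay close by, at the end of the pseudogene MBL1P. No other coding gene had its 5′ end within 1 kb of the 3 peaks.

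SFTPB and SCGB1A1 had no peak within 1 kb of an end. SFTPB lies on chromosome 2, from 85657307 to 85668741 on the minus strand, and its 2 peaks were both upstream, in a stretch without annotated genes. That from 85675234 to 85675529 was 296 bp wide and had a fold of 10.9 with 26 fragments (17 to 38.1), with a summit 6618 bp before the outer start. That from 85678002 to 85678927 had a fold of 4.49 with 12 fragments (6.2 to 21), with a summit 10016 bp before the outer start. The intervals of these pileups overlapped between 17 and 21 fragments, and the difference in height was not tested.

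SCGB1A1, on chromosome 11 from 62419033 to 62423195, had the weakest peaks of the 9 genes that had any. Its direction was not given, so either end was counted as its 5′ end. The peak from 62424757 to 62425016 lay 1.56 kb beyond the upper end of SCGB1A1, with its summit inside the annotated gene LOC102723765. This peak had a fold of 3.51, a −log10 q of 3.22 and 12 fragments (6.2 to 21) over a control level of 2.7. The peak from 62440023 to 62440472 lay inside AHNAK, the gene of a large scaffold protein, with a fold of 3.72 and 9 fragments (4.12 to 17.1). Both folds were in the lowest 4.54% of all peaks. With the strongest fold of its window at 3.72, SCGB1A1 was at percentile 14.4 of protein-coding genes, of which 13.7% had no peak at all.

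**Figure D3:**
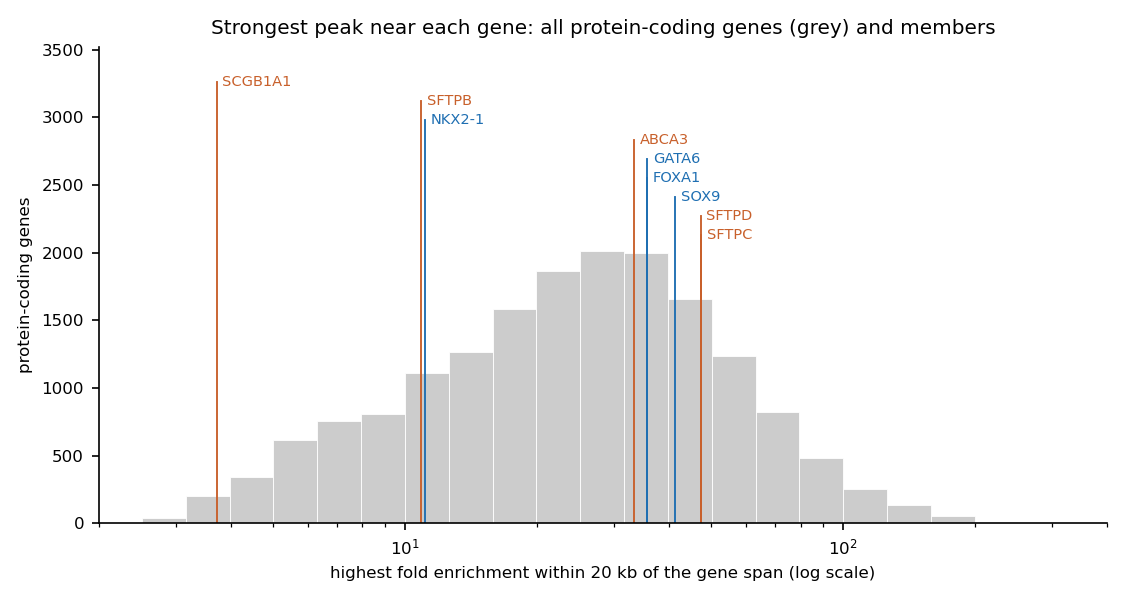
Highest fold enrichment within 20 kb of the span (horizontal log axis) for all protein-coding genes with a peak (grey bars, number of genes on the vertical axis), with a line for each of the 9 member genes that had one (blue, factors; orange, products; only the position along the axis carries a value). SFTPC and SFTPD stand highest at 47.5 and 47.3, NKX2-1 and SFTPB lie at 11.1 and 10.9, and SCGB1A1 at 3.72.

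Set side by side, factors and products had the following numbers of peaks for the length of their windows. The 5 factor windows held 10 peaks in 252 kb, or 3.96 per 100 kb, and the 5 product windows 15 peaks in 332 kb, or 4.52 per 100 kb. Over all protein-coding genes, the windows held 3.03 peaks per 100 kb. The median span was 5.4 kb for the factors, 11.4 kb for the products and 24.2 kb for all coding genes, and the densities were not adjusted for it. In the wider lists described below, the density was 2.1 for the other factors and 4.47 for the other products and surface genes. The order of the densities of the 5 factors and 5 products was not stable. With a window of 10 kb they were 5.25 for the factors and 4.31 for the products, and with a fold of 10 or more required 3.17 and 3.01. These cannot be set against the 3.03 of all coding genes, which holds for 20 kb and peaks of any fold. The median over genes of the highest fold was 35.7 for the 4 factors with a peak and 33.4 for the 5 products, against 25.2 for all coding genes with a peak. With peaks at the 5′ ends of other coding genes left out, these medians were 27.1 and 26.9. A window of 10 kb gave 35.7 for the factors and 22.6 for the products, and one of 50 kb gave 38.5 and 47.3. The value of 25.2 holds for 20 kb and all peaks only. Of the 10 factor peaks, 5 lay within 1 kb of the 5′ end of the factor gene, 2 of them at NKX2-1 and 1 also at another coding gene, and 5 at no coding 5′ end. Of the 15 product peaks, 4 lay within 1 kb of an end counted as 5′, 2 of these also at another coding gene. A further 2 lay at another coding gene alone, and 9 at no coding 5′ end. The 2 that were at both lay at opposite ends of SFTPC, whose direction was not given, so only 1 of them can be at its 5′ end. With 5 genes on a side and 1 library, the difference between the groups was not tested.

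The widths of the peaks at the 5′ ends varied within both groups, with either end counted for SOX9 and SFTPC. Those of SOX9, GATA6 and FOXA1 measured 2809, 2232 and 1901 bp, at percentiles 97.6, 93.3 and 87.9 of width among peaks at coding 5′ ends, whose median was 1003 bp. The 2 peaks of NKX2-1 measured 1099 and 312 bp, at percentiles 56 and 5.07. Among the products, that of ABCA3 measured 1534 bp, the one at the BMP1 side of SFTPC 1348 bp, that of SFTPD 922 bp and the one at the LGI3 side of SFTPC 468 bp, at percentiles 77.3, 69.6, 44.9 and 14.7.

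The window of 20 kb fell in a gap for these genes. The peaks farthest from their gene yet inside were that in AHNAK, 16.8 kb from SCGB1A1 with a fold of 3.72, and that at REEP4, 14.7 kb from SFTPC with a fold of 18.2. Just outside lay a peak 20.6 kb from SOX9 with a fold of 15.2 and one 21.9 kb from GATA6 with a fold of 7.44.

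A wider set of lung genes was described in the same way, 15 other factors and 15 other products or surface genes of alveolar and airway cells. Among the other factors, a peak lay at the 5′ end, within 1 kb, of 8 of 15 (53.3%), and one of fold 10 or more at 5, against the 60.2% and 43.6% of all coding genes. The highest folds were 119 at FOXP4, a forkhead factor of the lung, 29.1 at HHEX, a homeodomain factor of foregut, and 25.2 at CEBPD, a bZIP factor. No peak lay at the 5′ end of 7, among them FOXP1, which had none within 20 kb either, TP63 of basal cells, and GRHL2 and KLF5 of epithelia. For both wider lists only the outer gene ends were searched, so starts farther inside a gene were not examined. Either end was counted for 4 of the other factors, CEBPD among them, and for 3 of the other products and surface genes, whose direction was not given. GRHL2 and TP63 had strong peaks elsewhere in their windows, with folds up to 125 and 94.3.

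Among the other products and surface genes, the same was found for 4 of 15 (26.7%), of which only that at LPCAT1, a lipid enzyme of surfactant synthesis, reached a fold of 10, with 26.7. LAMP3 and NAPSA, of lamellar bodies and of surfactant protein processing, had folds of 9.64 and 9.37 there. No peak was listed at the 5′ ends of the other 11, among them SFTPA1 and SFTPA2, which encode the surfactant protein A forms, SCGB3A1 and SCGB3A2, which encode secretoglobins of the airway, and SLC34A2. SFTPA1, SCGB3A1 and SCGB3A2 had none within 20 kb either. Elsewhere in their windows, peaks reached a fold of 43.4 at SFTPA2, 29.5 at SLC34A2, a phosphate transporter, and 29.3 at HOPX, a marker of alveolar type I cells. SFTPA1 and SFTPA2 are near-identical copies, so reads could be lost or shared between them. Over both lists of products together, a peak lay at the 5′ end of 7 of 20 genes (35%), and over both lists of factors of 12 of 20 (60%), beside the 60.2% of all coding genes. The lists were put together by hand with results of these data known, and the difference between them was not tested.

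**Figure D4:**
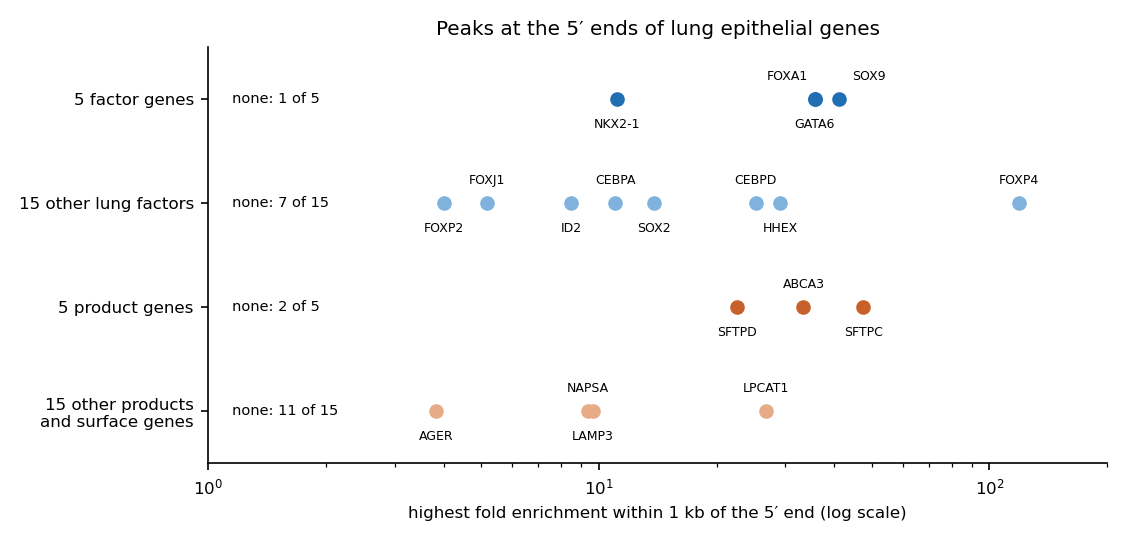
Highest fold enrichment within 1 kb of the 5′ end (horizontal log axis) for each gene of 4 lists, with the number of genes that had no such peak written at the left. Where no direction was given, either end was counted. SFTPC is thus drawn at 47.5, the peak at its BMP1 side, while the peak at its other end had 10.1. The 5 factor genes lack a peak once and the 15 other products and surface genes 11 times; the folds of the genes with a peak run from 3.83 at AGER to 119 at FOXP4.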

How the data were processed

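The data are 1 peak list, of the anti-Flag immunoprecipitate, and no replicate; the input has no file of its own. The submitters' processing notes name Bowtie2 2.4.1, SAMtools, MACS2 2.2.7.1 and deepTools 3.5.0, and the build hg38, without parameters or the handling of duplicates. The authors deposited for each peak its interval and summit, the fold enrichment over the local control as a ratio, and the −log10 p-value and −log10 q-value at the summit. The lowest −log10 q was 1.3. The deposited display score, derived from the q-value, was not analysed. Positions are 1-based.

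Genes came from RefSeq on GRCh38.p14. Their table gives spans without strand or exons, so the direction was taken from RefSeq promoters, which gave it for 79.2% of the 19974 protein-coding genes. A peak was counted where its interval overlapped the span extended by 20 kb, or came within 1 kb of the outermost 5′ end, of either end where no direction was given. The rules on 20 kb and on the 5′ end were also run over all protein-coding genes for the background.

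Fragments at the summit were solved from the fold, with a pseudocount of 1 added to both pileup and control, and the Poisson p-value, and 100% of the peaks gave a whole number within 0.01. The solution was tested on simulated data. A weak peak rests on few fragments, and a low control level has a floor of 1.28.

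The 10 genes and the further lists were chosen with earlier results of these data known. Named are the 10 genes, genes with an end within 1 kb of their peaks, and, of the further lists, the 3 with the highest fold and up to 5 without a peak at the 5′ end. A gene of this last kind is counted but not reported here by name. AHNAK, BMS1P21, LOC102723765, AGER and HOPX, and the folds at GRHL2, TP63, SFTPA2 and SLC34A2 away from their 5′ ends, were named after their values were seen. The work was done in Python 3.11.15 with pandas 2.3.3, numpy 2.4.6 and scipy 1.17.1, and drawn with matplotlib 3.10.9.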

Additional observations from a re-analysis of the deposited data

How the results depend on the processing

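Of 62 recomputed values of 11 results, 56 stayed within 1.5 times the value in the report. A window of 50 kb moved the 25 peaks near the 10 genes to 44, the 15 peaks near the products to 30, and the 3.96 peaks per 100 kb of the factors to 2.53, beside 4.75 for the products. Requiring a fold of 10 or more moved the other factors with a peak at the 5′ end from 8 to 5 of 15, and the other products and surface genes from 4 to 1. The share of all coding genes fell with it, from 60.2% to 43.6%. Leaving out peaks nearer to another coding gene and taking the starts of RefSeq promoters together, chosen after the values were seen, moved the products with a peak at the 5′ end from 3 to 1. Here the share of all coding genes was 55.7%. The factors stayed at 4 of 5 under all alternatives run for that count, beside shares of all coding genes from 43.6% to 63.0%. The order of the densities of factors and products turned with a window of 10 kb, a fold or −log10 q of at least 10, and peaks at other coding 5′ ends left out. The causes were not tested. The planned motif counts around summits and their 3 alternatives were not run, since no genome sequence was used here. Depth limits the weak peaks most, since those of SCGB1A1 and the inner one of NKX2-1 rest on 9 to 12 fragments, and 1 library leaves the spread between experiments unknown.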
